A study of Mus musculus with 158 samples.

Results

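Hairpins against Timeless, Prkdc and Alkbh8 were followed in a pooled screen of short hairpin RNAs (shRNAs, sequences that a cell processes into a small RNA directed against 1 gene). All hairpins whose listed target was 1 of these 3 genes were taken, 10 of the 1000 targeting hairpins and 3 of the 285 targeted genes. Timeless had 3 hairpins, 1 in pool 8 and 2 in pool 15. Prkdc had 4 hairpins, 2 in pool 5 and 2 in pool 16. Alkbh8 had 3 hairpins, all in pool 12. Each hairpin was measured only in the libraries of its own pool, against the other targeting hairpins of that pool. The hairpins of a gene in 1 pool come from the same libraries and share a target, so they are not replicates of each other.

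Every group consisted of PDA530 Met cells, a mouse pancreatic adenocarcinoma line from a liver metastasis, infected with 1 virus pool at a low multiplicity and selected with puromycin. Day 0 was a pellet of the selected cells, culture was the same cells after 28 days in vitro, and lungs were tumours taken 28 days after injection into the tail vein, with all tumours of a mouse joined into 1 library. No group was free of hairpins or of selection, 1 cell line stands for the disease, and seeding from the tail vein leaves out the earlier steps of spread. The sources used here do not name the alleles of the line or the strain and age of the mice. The measured molecule was the hairpin cassette in genomic DNA, so the labelled cell type could not be set against marker genes, and knockdown of the targets was not analysed here. A change in a hairpin's level is a change in its share of the pool, which fewer cells with that hairpin and more cells with others cannot be told apart from.

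Timeless, a partner of Tipin, travels with the replication fork, couples the helicase to the polymerases and helps to pass replication stress signals to the checkpoint kinases. Prkdc encodes the catalytic subunit of DNA-dependent protein kinase (DNA-PKcs), which is recruited by the Ku proteins to broken DNA ends and is needed for non-homologous end joining. Alkbh8 belongs to the AlkB family, which also holds enzymes of direct DNA repair, but is itself a tRNA methyltransferase that completes the modified wobble uridine of some tRNAs and has been linked to the response to DNA damage and oxidative stress. Cells that divide need the first of these functions in every S phase, whereas the other two act on lesions and on translation.

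The libraries of pools 5, 8, 12, 15 and 16 held 4122499 to 10555387 reads at day 0, 4753241 to 9321062 in culture and 4154876 to 8829973 in lungs. Each of these pools had all its libraries in 1 lane or run, so no lane differed between groups. Lung library 16D stood apart. Of its 6280972 reads only 42538 were of pool 16, 0.677% of the library, and 74.0% belonged to other pools. Pool 16 had 2 lung libraries, 16D and 16E, so the lung results of pool 16 are given with and without 16D. Culture libraries of pools 5 and 8 were named for 2 pools each (4/5 and 8/9), those of pool 12 for pool 12 alone, and those of pools 15 and 16 were of both kinds. Levels below are in CPM, the reads of a hairpin when the reads of its pool's targeting hairpins are set to a sum of 1000000, scaled with TMM factors. TMM assumes that most hairpins did not change. Without it, the median change of a pool from day 0 to culture lay between -0.88 (log2, pool 16) and -0.26 (pool 8), and with it, in the tests, between -0.18 and -0.06, so a direction near 0 depends on this choice. The rank of a hairpin's change among those of its pool hardly depends on that choice. Apart from 1 rare Timeless hairpin, the fewest reads behind a level were 1053, a counting error of 3.08%. The cultures and mice were separate per the labels' protocols, but nothing says that day 0 libraries of a pool came from separate infections, so p-values may in part measure technical spread.

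Of 3 Timeless hairpins 2 fell over 28 days of culture, and the change of the pool 8 hairpin was the lowest of its pool. Of 10 hairpins of the 3 genes, 5 changed from day 0 to culture, 4 lower and 1 higher. Both Timeless hairpins with ample reads and 2 of 4 Prkdc hairpins were among the lower ones, and an Alkbh8 hairpin was the higher one. These calls are limma tests with Benjamini-Hochberg adjusted p below 0.05 over all hairpins of all pools. By the same rule 60.6% of the 945 hairpins tested were called, 28.8% higher and 31.9% lower, so a call in culture was common. The split of these calls depended on the scaling, with 272 higher and 301 lower hairpins with TMM and 163 and 452 without it. The median change of the 10 hairpins was -0.87 on the log2(CPM + 1) scale, and that of all hairpins tested was -0.10. In lungs against day 0, 4 of the 10 hairpins changed, 2 higher and 2 lower. In that comparison 33.8% of 891 hairpins were called, 14.7% higher and 19.1% lower. Without TMM 83 were higher and 257 lower, in place of 131 and 170. The median change was 0.06 for the 10 hairpins and -0.13 for all. Without lung library 16D, 5 of the 10 were called, 2 higher and 3 lower, beside 329 of all 891, 144 higher and 185 lower, and the median of the 10 was -0.071. In lungs against culture, 1 of the 9 hairpins that could be tested was called, in the higher direction, beside 24.9% of 889 hairpins, 11.6% higher and 13.3% lower. Scaled to the controls 211 were higher and 45 lower, in place of 103 and 118. The median change was 0.79 for the 9 hairpins, 0.54 without 16D, and -0.11 for all. The comparisons with day 0 share their day 0 libraries, and the lung libraries enter both lung comparisons.

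**Figure D1:**
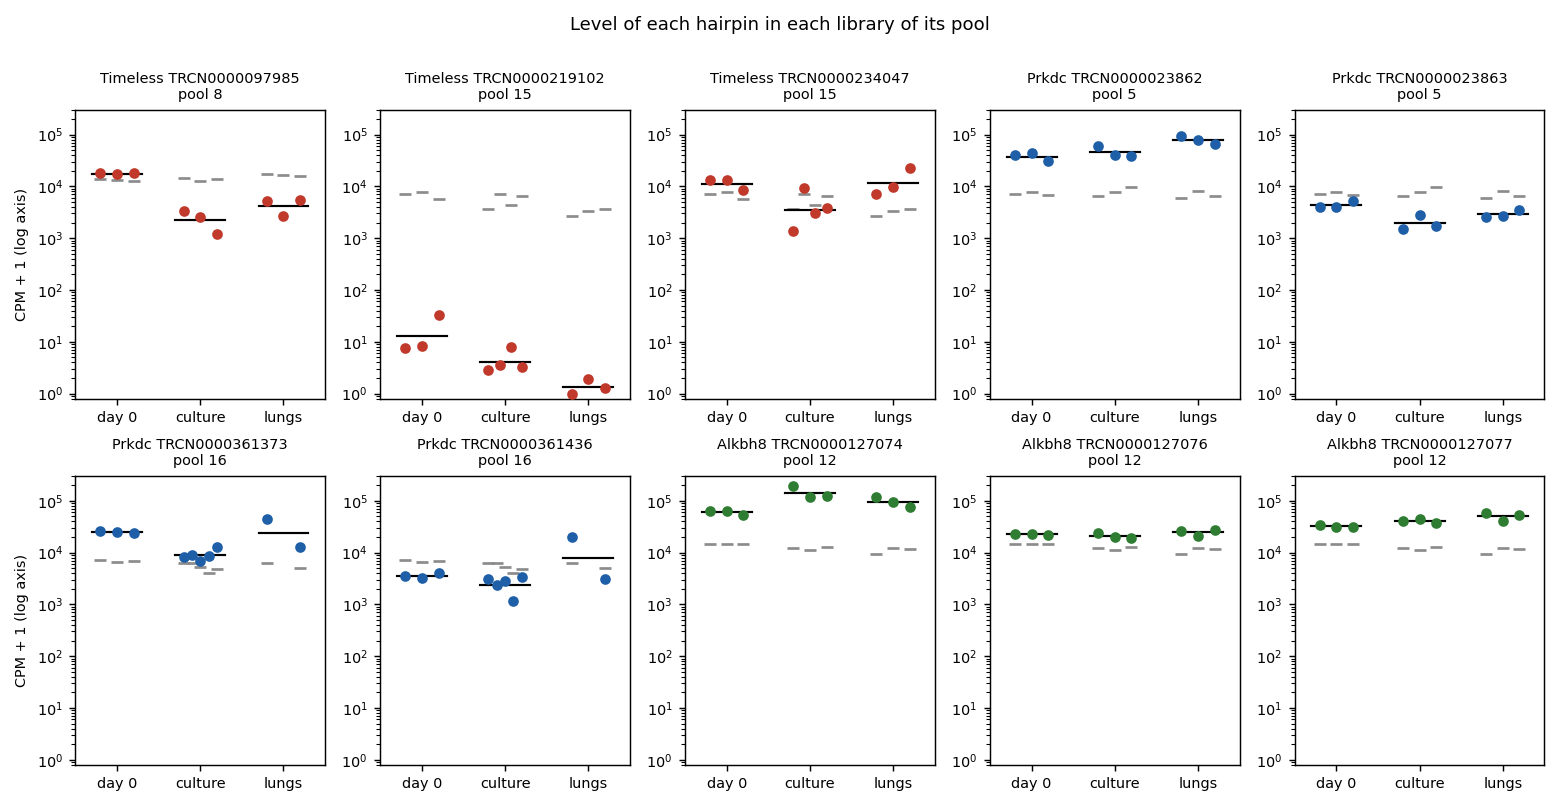
Level of each of the 10 hairpins in each library of its pool, as CPM + 1 on a log axis, at day 0, in culture and in lungs. Points are libraries, black lines the means of the log2 values, and grey dashes the median level of the pool's targeting hairpins of other genes in the same library. Timeless TRCN0000097985 and TRCN0000219102 are lower in every lung library than in every day 0 library of their pools, and the pool 16 hairpins of Prkdc are far apart between the 2 lung libraries.

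Timeless TRCN0000097985 of pool 8 lay at 17854, 17195 and 18159 CPM at day 0 in libraries 8A, 8B and 8C. Culture libraries 8/9A, 8/9B and 8/9C gave 3395, 2544 and 1222 CPM. Lung libraries 8A, 8B and 8C gave 5310, 2676 and 5469 CPM. Every library after 28 days was below every day 0 library, and culture and lungs overlapped. At day 0 this hairpin was above the median of the pool's hairpins of other genes, 12960 CPM, and ranked 23 of 52 by mean level. It ranked 43 of 52 in culture and 40 of 52 in lungs. In culture it fell by 2.96 on the log2 scale against day 0 (SE 0.33, 95% interval -3.71 to -2.21), which is 7.81-fold lower (limma, adjusted p = 8.51e-05). That was the lowest change of the 52 hairpins of pool 8, whose median was -0.06. In lungs it fell by 2.05 against day 0 (SE 0.32, 95% interval -2.78 to -1.33), which is 4.15-fold lower (limma, adjusted p = 0.00231) and the sixth lowest of 52. Lungs against culture differed by 0.98 (SE 0.67, 95% interval -0.44 to 2.40; limma, adjusted p = 0.293), so the higher mean in lungs was within the spread between libraries.

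Timeless TRCN0000234047 of pool 15 lay at 13035, 13483 and 8346 CPM at day 0 in libraries 15B, 15C and 15D. In culture it lay at 1393, 9113 and 3044 CPM in libraries 14/15A, 14/15B and 14/15C and at 3799 CPM in 15D. In lungs it lay at 7185, 9842 and 22932 CPM in libraries 15B, 15C and 15D. With TMM, culture spread over a wide range that reached into the day 0 values. On that scale 1 lung library was above all day 0 libraries while another was below them. Without TMM all culture libraries, at 1123 to 8465 CPM, were below all day 0 libraries, at 11444 to 21862 CPM. Lung libraries 15B, 15C and 15D were then at 8325, 5668 and 14508 CPM, none of them above all day 0 libraries. It fell by 1.82 from day 0 to culture (SE 0.52, 95% interval -3.00 to -0.65; limma, adjusted p = 0.0133), the eighth lowest of 54 hairpins in a pool with a median of -0.18. Leaving out 1 library of pool 15 at a time, the call was lost without day 0 library 15B (-1.56; limma, adjusted p = 0.081). With only the 1 culture library named for pool 15, whose spread is assumed to be that of day 0, the change was -1.56, and with only the 3 named for pools 14 and 15 it was -1.74 (limma, adjusted p = 0.0396). Lungs against day 0 gave 0.03 (SE 0.40, 95% interval -0.93 to 0.98; limma, adjusted p = 0.973). The sign of this value changed without TMM, to -0.96, and the median of pool 15 was itself -0.71, so the hairpin was 0.73 above the median of its pool. Lungs against culture gave 1.67 (SE 0.58, 95% interval 0.36 to 2.99; limma, adjusted p = 0.0669), the second highest of 52 hairpins, but not a call. It became one with DESeq2 (1.86, adjusted p = 0.0264), with all 3 groups in one fit (1.76; limma, adjusted p = 0.0262), relative to the controls (2.29; 0.0299), and without culture library 14/15B (2.06; 0.0193) or 15D (2.07; 0.0349).

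Timeless TRCN0000219102 of pool 15 was rare from the start. It had 46, 48 and 194 reads at day 0 in libraries 15B, 15C and 15D, of 4156956 to 4544808 reads of the pool. It had 5, 9 and 19 reads in culture libraries 14/15A, 14/15B and 14/15C and 12 reads in 15D. It had 0, 4 and 1 reads in lung libraries 15B, 15C and 15D, where 0 reads allow up to 0.479 CPM of unscaled reads in 15B (3 counts of its 6257102 reads). All lung libraries were below all culture libraries. With TMM culture and day 0 overlapped, whereas without it all culture libraries, at most 6.57 CPM, were below all day 0 libraries, at least 10.1 CPM. The summed reads gave a ratio of lungs to day 0 of 0.0117 (exact 95% interval 0.00378 to 0.0277) and of culture to day 0 of 0.132 (0.0945 to 0.182). Day 0 library 15D held 194 of the 288 day 0 reads, and without it these ratios were 0.0239 (0.00758 to 0.0578) and 0.270 (0.185 to 0.389). These intervals cover counting error only, since PCR reads without molecular identifiers are not independent molecules. The fit gave -3.35 for lungs against day 0 (SE 0.88; limma, adjusted p = 0.0259), with 8 hairpins of the pool lower. It stayed a call with DESeq2 (-5.21, adjusted p = 0.000161) and as deposited (-5.30; limma, adjusted p = 0.0187). It was not a call with edgeR (-5.38, adjusted p = 0.0511), with a pseudocount of 10 (-1.20; limma, adjusted p = 0.10), or with the replicate letter as a block (-3.35; limma, adjusted p = 0.0535). The same held without day 0 library 15D (-2.60; limma, adjusted p = 0.0581) and without lung library 15B (-3.19; 0.0879) or 15D (-3.37; 0.0721). Culture against day 0 gave -1.78 (SE 1.01, 95% interval -4.04 to 0.49; limma, adjusted p = 0.154) and was a call with DESeq2 (-2.11, adjusted p = 0.0285). Lungs against culture was not tested, because its mean over those libraries was below 10 reads. Outside pool 15 it had 0 reads in 138 of 138 samples.

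**Figure D2:**
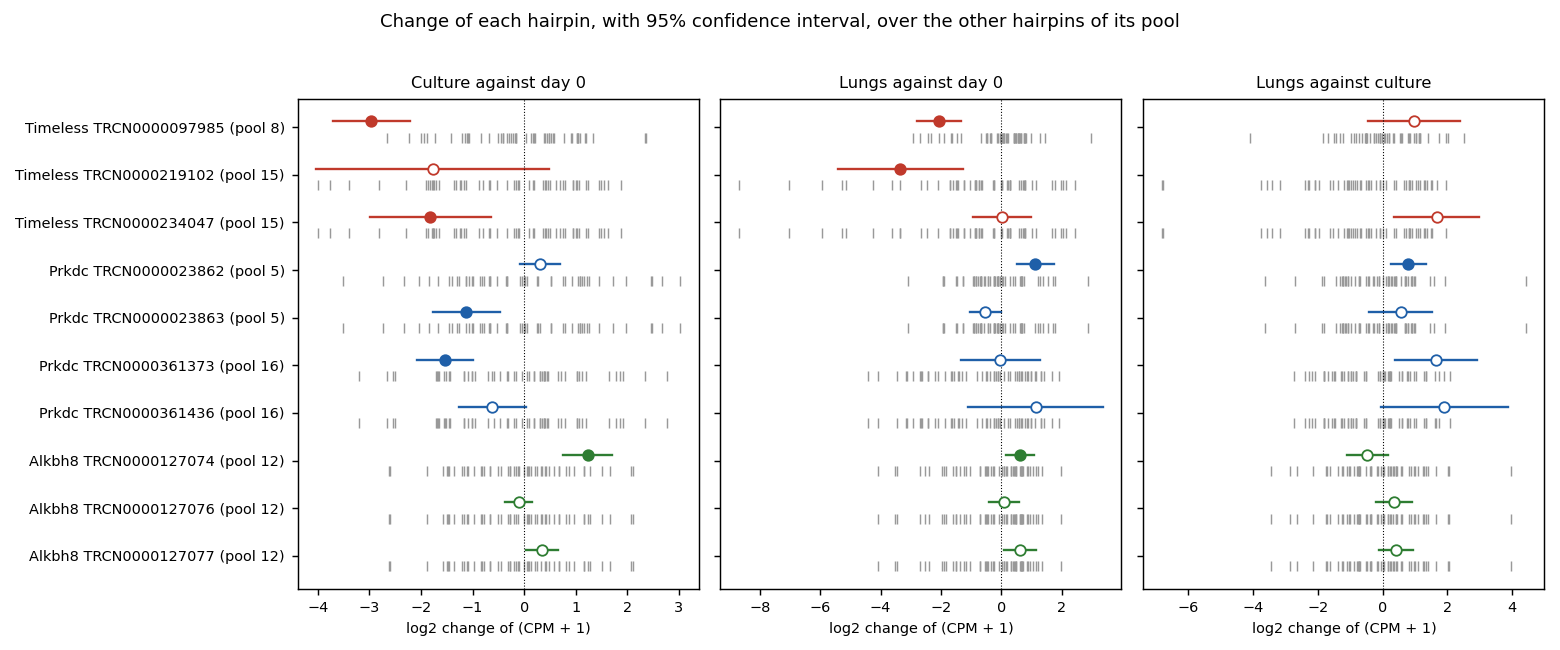
Change of each hairpin on the log2(CPM + 1) scale in 3 comparisons. Circles are limma estimates with unadjusted 95% confidence intervals, filled where the adjusted p was below 0.05, and grey ticks are the changes of the other hairpins tested in the same pool. Timeless TRCN0000097985 lies left of every other hairpin of pool 8 in culture against day 0, and TRCN0000219102 has no circle in lungs against culture because it was not tested there.

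Of 4 Prkdc hairpins, with all libraries and TMM, 1 rose in lungs against day 0 and 2 fell in culture, and the hairpins of pool 5 moved apart. Whether the 4 moved the same way in culture depended on the scaling: without TMM, as deposited and relative to the controls, 4 of 4 were called lower there (limma), with changes without TMM of -0.45, -1.87, -2.32 and -1.40. Under these scalings 452, 502 and 523 of all 945 hairpins were called lower, so such a call was common. In lungs against day 0 TRCN0000361373 was lower without library 16D and higher without 16E, each resting on 1 lung library. The lower value was not a call with all 3 groups in one fit. TRCN0000023863 fell in lungs without TMM. These values are given below. Prkdc TRCN0000023862 of pool 5 lay at 39888, 43319 and 31153 CPM at day 0 in libraries 5A, 5B and 5C. The culture libraries 4/5A, 4/5B and 4/5C stood at 60919, 39713 and 38352 CPM. The lung libraries 5A, 5B and 5C stood at 94751, 78489 and 65715 CPM. All lung libraries were above all day 0 and culture libraries, and culture overlapped day 0. It rose by 1.13 from day 0 to lungs (SE 0.26, 95% interval 0.51 to 1.74), which is 2.18-fold higher (limma, adjusted p = 0.0182) and the eighth highest of 52 hairpins. Against culture it was higher in lungs by 0.79 (SE 0.25, 95% interval 0.25 to 1.33; limma, adjusted p = 0.0351). That was not a call with edgeR (adjusted p = 0.0526) or DESeq2 (0.0519), or without culture library 4/5B (0.84; limma, adjusted p = 0.105), culture 4/5C (0.57; 0.0663), lung 5A (0.71; 0.0902) or lung 5B (0.87; 0.0637). Culture against day 0 gave 0.31 (SE 0.18, 95% interval -0.09 to 0.70; limma, adjusted p = 0.159), and without TMM its sign turned, to -0.45 (limma, adjusted p = 0.047). It lay 0.37 above the pool's median change.

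Prkdc TRCN0000023863, in the same libraries of pool 5, lay at 3990, 3973 and 5156 CPM at day 0 in libraries 5A, 5B and 5C. In culture it lay at 1502, 2848 and 1700 CPM in libraries 4/5A, 4/5B and 4/5C. In lungs it lay at 2525, 2656 and 3570 CPM in libraries 5A, 5B and 5C. Day 0 was above culture and above lungs in every library, and culture and lungs overlapped. It fell by 1.12 from day 0 to culture (SE 0.30, 95% interval -1.76 to -0.48; limma, adjusted p = 0.0055), with 11 hairpins of the pool lower. Lungs against day 0 gave -0.53 (SE 0.22; limma, adjusted p = 0.11), and without TMM -1.08 (limma, adjusted p = 0.0162). Lungs against culture gave 0.56 (SE 0.44, 95% interval -0.41 to 1.54; limma, adjusted p = 0.366), but as deposited 1.73 (limma, adjusted p = 0.00964) and relative to the controls 2.03 (limma, adjusted p = 0.00387), both calls. The ratio between reads of both hairpins within a library is free of any scaling. TRCN0000023862 had 8.98 ± 2.58 times the reads of TRCN0000023863 at day 0 (SD, n = 3), 25.7 ± 13.6 times in culture (SD, n = 3) and 28.5 ± 9.60 times in lungs (SD, n = 3). The lowest ratios in culture and lungs, 13.9 and 18.4, were above the highest at day 0, 10.9, so these hairpins against 1 gene moved apart in both settings, a description that was not tested.

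Prkdc TRCN0000361373 of pool 16 lay at 26423, 24810 and 23664 CPM at day 0 in libraries 16A, 16D and 16E. In culture the lowest of 5 libraries was at 6944 CPM, the highest at 12740, and the mean at 9033 ± 2193 CPM (SD, n = 5). In lungs it lay at 44841 CPM in 16D, from 2384 reads, and at 12816 CPM in 16E, from 67620 reads. All culture libraries were below all day 0 libraries, and the 2 lung libraries lay on either side of day 0. The hairpin fell by 1.53 from day 0 to culture (SE 0.25, 95% interval -2.08 to -0.99), which is 2.90-fold lower (limma, adjusted p = 0.000244). With only culture libraries named for pool 16 this was -1.26 (limma, adjusted p = 2.28e-05), and with only those named for pools 16 and 17 it was -1.77 (limma, adjusted p = 1.21e-05). Lungs against day 0 gave -0.03 (SE 0.52, 95% interval -1.34 to 1.27; limma, adjusted p = 0.973). Scaled as deposited it was -3.06 and relative to the controls -3.40, neither a call (limma, adjusted p = 0.325 and 0.368). Without 16D these were -1.14 (limma, adjusted p = 0.00132) and -0.97 (limma, adjusted p = 0.00033). With TMM it was -0.91 without 16D and 0.85 without 16E. Each of these values rests on 1 lung library assumed to vary like the day 0 libraries. With all 3 groups in one fit and without 16D it was -0.9991, not a call. Lungs against culture gave 1.65 (SE 0.56; limma, adjusted p = 0.061) without 16D 0.54 (limma, adjusted p = 0.367) and without 16E 2.76 (limma, adjusted p = 0.00135). With both lung libraries its sign turned as deposited, to -0.77, and relative to the controls, to -1.19, and without 16D these were 1.15 and 1.24, none of them a call. With both it was called higher without TMM (2.01; limma, adjusted p = 0.0209), with all 3 groups in one fit (1.44; 0.0206) and with culture libraries named for pools 16 and 17 (1.88; 0.0458). Without 16D the first of these was 1.00 (limma, adjusted p = 0.129) and the second 0.54 (limma, adjusted p = 0.279).

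Prkdc TRCN0000361436, in the same libraries of pool 16, lay at 3609, 3197 and 4042 CPM at day 0 in libraries 16A, 16D and 16E. In culture the lowest of 5 libraries was at 1176 CPM, the highest at 3392, and the mean at 2566 ± 866 CPM (SD, n = 5). In lungs it lay at 19806 CPM in 16D, from 1053 reads, and at 3102 CPM in 16E, from 16367 reads. Library 16D alone was high, and 16E was below the day 0 libraries. With TMM 16E was within the culture range, whereas without it 16E lay at 3341 CPM, above the highest culture level of 2903 CPM. Culture against day 0 gave -0.62 (SE 0.30, 95% interval -1.27 to 0.04; limma, adjusted p = 0.0937). It was called lower without TMM (-1.40; limma, adjusted p = 0.00457), as deposited (-1.37; 0.00528), relative to the controls (-1.29; 0.0158) and without culture library 16E (-0.74; 0.0478). Lungs against day 0 gave 1.15 (SE 0.89, 95% interval -1.09 to 3.38; limma, adjusted p = 0.368), and without 16D the sign turned, to -0.17 (limma, adjusted p = 0.573), while without 16E it was 2.46 (limma, adjusted p = 9.8e-06). With both lung libraries the sign also turned with the scaling, to -1.88 as deposited and -2.22 relative to the controls, and without 16D these were -0.39 and -0.22, none of them a call. Lungs against culture gave 1.91 (SE 0.87; limma, adjusted p = 0.147), without 16D 0.36 (limma, adjusted p = 0.641) and without 16E 3.46 (limma, adjusted p = 0.000917). As deposited and relative to the controls it was -0.51 and -0.93 with both lung libraries and 0.97 and 1.07 without 16D, none of them a call. Each value without 16D or 16E again rests on 1 lung library. edgeR, with both lung libraries, called this hairpin (2.55, adjusted p = 0.0314) and TRCN0000361373 (2.00, adjusted p = 0.017) higher in lungs than in culture, and so did DESeq2 (2.79, adjusted p = 0.00296, and 2.22, adjusted p = 0.00511). Without 16D edgeR gave 0.30 (adjusted p = 0.701) and 0.50 (adjusted p = 0.385), and DESeq2 0.25 (adjusted p = 0.798) and 0.44 (adjusted p = 0.57). A part of 16D's small number of reads in these values was not tested.

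Alkbh8 hairpins were frequent in pool 12, and with TMM none of them fell in any comparison, whereas without it TRCN0000127076 fell in culture. TRCN0000127074 was the most frequent hairpin of the pool in 9 of 9 libraries. It lay at 64267, 63778 and 54098 CPM at day 0 in libraries 12A, 12B and 12C. Culture libraries 12A, 12B and 12C held 196748, 119582 and 122199 CPM. Lung libraries 12A, 12B and 12C held 118476, 93703 and 75610 CPM. Every culture and lung library was above every day 0 library. With TMM every culture library was also above every lung library. Without it lung library 12A, at 112531 CPM, lay above culture libraries 12B and 12C, at 106925 and 106108 CPM. From day 0 to culture it rose by 1.23 (SE 0.23, 95% interval 0.76 to 1.70), which is 2.35-fold higher (limma, adjusted p = 0.000111) and the sixth highest of 53 hairpins. From day 0 to lungs it rose by 0.62 (SE 0.21, 95% interval 0.15 to 1.09; limma, adjusted p = 0.0442). The lung call was close to the threshold. It was lost with DESeq2 (adjusted p = 0.0607), without TMM (limma, adjusted p = 0.0572), with TMM of the other genes' hairpins (0.0613), with all 3 groups in one fit (0.0597), and without 1 library of pool 12 at a time: day 0 library 12A (0.66; limma, adjusted p = 0.103), 12B (0.68; 0.104) or 12C (0.37; 0.267), and lung library 12A (0.46; 0.0616) or 12B (0.63; 0.0948). Lungs against culture gave -0.47 (SE 0.28, 95% interval -1.10 to 0.16; limma, adjusted p = 0.249), not beyond the spread between libraries in the fit.

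Alkbh8 TRCN0000127077 lay at 33501, 31482 and 31537 CPM at day 0 in libraries 12A, 12B and 12C. In culture it lay at 39991, 45251 and 37885 CPM, and in lungs at 57461, 40117 and 54204 CPM, in libraries 12A, 12B and 12C. With TMM the libraries of both later groups lay above those of day 0, and no comparison was a call. Without it culture libraries 12A and 12C, at 29671 and 32896 CPM, lay below all day 0 libraries, at 36625 to 38997 CPM. Culture against day 0 gave 0.35 (SE 0.15, 95% interval 0.03 to 0.66; limma, adjusted p = 0.0526), and without TMM the sign turned, to -0.16. Lungs against day 0 gave 0.62 (SE 0.24, 95% interval 0.08 to 1.16; limma, adjusted p = 0.0745). Lungs against culture gave 0.41 (SE 0.24; limma, adjusted p = 0.237). The culture value became a call with DESeq2 (adjusted p = 0.0233), with TMM of the other genes' hairpins (limma, adjusted p = 0.0249), relative to the controls (0.0484) and without culture library 12A (0.038) or 12B (0.0497). The lung value against day 0 became one with DESeq2 (adjusted p = 0.0479), with all 3 groups in one fit (limma, adjusted p = 0.0376) and without lung library 12B (0.00591).

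Alkbh8 TRCN0000127076 lay at 22674, 23226 and 22337 CPM at day 0 in libraries 12A, 12B and 12C. In culture it lay at 24191, 20048 and 19460 CPM, and in lungs at 25616, 20849 and 27825 CPM, in libraries 12A, 12B and 12C. With TMM all 3 groups overlapped. Without it all culture libraries, at most 17949 CPM, lay below all day 0 and lung libraries, at least 21259 CPM. Culture against day 0 gave -0.11 (SE 0.13, 95% interval -0.37 to 0.16; limma, adjusted p = 0.481), which was exactly the median of the 53 hairpins. Without TMM this value was -0.61 (limma, adjusted p = 0.000383), the median change of pool 12 on that scale. Lungs against day 0 gave 0.09 (SE 0.22, 95% interval -0.39 to 0.57; limma, adjusted p = 0.773). Within a library, TRCN0000127074 had 2.67 ± 0.22 times its reads at day 0, 6.79 ± 1.17 times in culture and 3.95 ± 1.07 times in lungs (SD, n = 3 each). The culture ratios, from 5.97 to 8.13, lay above all day 0 and lung ratios. TRCN0000127077 had 1.42 ± 0.06, 1.95 ± 0.30 and 2.04 ± 0.18 times its reads in the same groups (SD, n = 3 each), again with no overlap of day 0 with the later groups. TRCN0000127074 had 1.89 ± 0.16 times the reads of TRCN0000127077 at day 0, 3.60 ± 1.18 times in culture and 1.93 ± 0.48 times in lungs (SD, n = 3 each). The day 0 and lung values of this last ratio overlapped, and the culture values lay above both. These ratios are descriptions that were not tested.

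In lungs against culture, 8 of the 9 hairpins tested lay above the median change of their pool and 1, Alkbh8 TRCN0000127074, lay below it. The hairpin not tested, the rare Timeless TRCN0000219102, was lower in all lung libraries than in all culture libraries and is not in this tally. For the hairpins tested, the following values hold. The median distance from the pool's median was 0.84. Without 16D it was 0.46, again with 8 above and 1 below. Prkdc TRCN0000023862 was the only one of the 9 called. From day 0 to culture, 6 of 10 hairpins lay below the median of their pool, 3 above it and 1 at it. From day 0 to lungs, 3 lay below and 7 above, and without 16D 4 below and 6 above.

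The library also held hairpins against other genes of DNA replication, repair and damage signalling. Of the 189 such genes taken up here, 8 were targeted, and 5 of these were not among the 3 genes. Their 16 hairpins were those of Atm, the kinase that responds to double-strand breaks, Rif1 of replication timing and break repair, Rpa3 of the single-strand binding complex, Rrm1 of ribonucleotide reductase, and the tumour suppressor Trp53. The 3 hairpins of Trp53 had values at day 0 only. Of the 13 others, 4 fell and 3 rose from day 0 to culture, 2 fell and 2 rose from day 0 to lungs, and 2 were lower and 2 higher in lungs than in culture. Over all hairpins 60.6%, 33.8% and 24.9% were called in these comparisons. The median changes were -0.75, -0.64 and -0.98, and those of all hairpins were -0.10, -0.13 and -0.11.

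Among replication genes, Rpa3 TRCN0000126818 of pool 12, in the same libraries as the Alkbh8 hairpins, lay at 29525 ± 2937 CPM at day 0, 35623 ± 7082 in culture and 5356 ± 1777 in lungs (SD, n = 3 each). It fell by 2.53 from day 0 to lungs (SE 0.30; limma, adjusted p = 0.000383) and was lower in lungs than in culture by -2.65 (limma, adjusted p = 0.000116). Rpa3 TRCN0000126816 of the same pool gave -1.499 in culture against day 0 (limma, adjusted p = 0.00202), and its lung change was -0.55 (limma, adjusted p = 0.322). Rpa3 TRCN0000313677 of pool 19 gave -1.97 in culture (limma, adjusted p = 0.0967) and -1.34 in lungs (limma, adjusted p = 0.146), both against day 0. Of 4 Rrm1 hairpins, TRCN0000042395 fell by 0.86 in culture (limma, adjusted p = 0.0276) and fell by 2.16 in lungs (limma, adjusted p = 0.0227). TRCN0000042397 fell by 0.76 in culture (limma, adjusted p = 2.76e-05). TRCN0000042396 rose in culture by 0.89 (limma, adjusted p = 0.000373) and was lower in lungs than in culture by -1.16 (limma, adjusted p = 0.0499). Lung libraries 6A and 6B of that pool held only 58189 and 358742 reads, beside 7185302 in 6C. Without 6A, TRCN0000042395 was at -2.81 in lungs against day 0 (limma, adjusted p = 0.0127). TRCN0000042396 was then no longer a call against culture (-0.68; limma, adjusted p = 0.146). TRCN0000042394 was then called in lungs against day 0 (-5.34; limma, adjusted p = 0.0057). It lay at a mean of only 202 CPM at day 0, so few reads of 6B can lie behind this value. Rif1 TRCN0000071339 fell by 1.48 in culture (limma, adjusted p = 8.51e-05), rose in lungs by 1.61 (limma, adjusted p = 0.0435) and was higher in lungs than in culture by 2.80 (limma, adjusted p = 0.000255). Rif1 TRCN0000071341 rose in lungs by 2.45 (limma, adjusted p = 0.0245) and was higher there than in culture by 2.82 (limma, adjusted p = 0.0024), with pool 9 having 2 lung libraries. The third Rif1 hairpin, TRCN0000071340, in the same libraries, gave -3.97 in lungs against day 0 (SE 1.66; limma, adjusted p = 0.14) and -2.04 against culture (limma, adjusted p = 0.343).

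Among signalling genes, Atm TRCN0000012643 and TRCN0000360398 rose in culture by 0.56 (limma, adjusted p = 0.00644) and 1.25 (limma, adjusted p = 0.00399), and no Atm hairpin was called in lungs. The remaining Atm hairpin, TRCN0000360327, gave -0.51 in culture against day 0 (limma, adjusted p = 0.349). In culture, hairpins of Rrm1 took opposite directions.

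**Figure D3:**
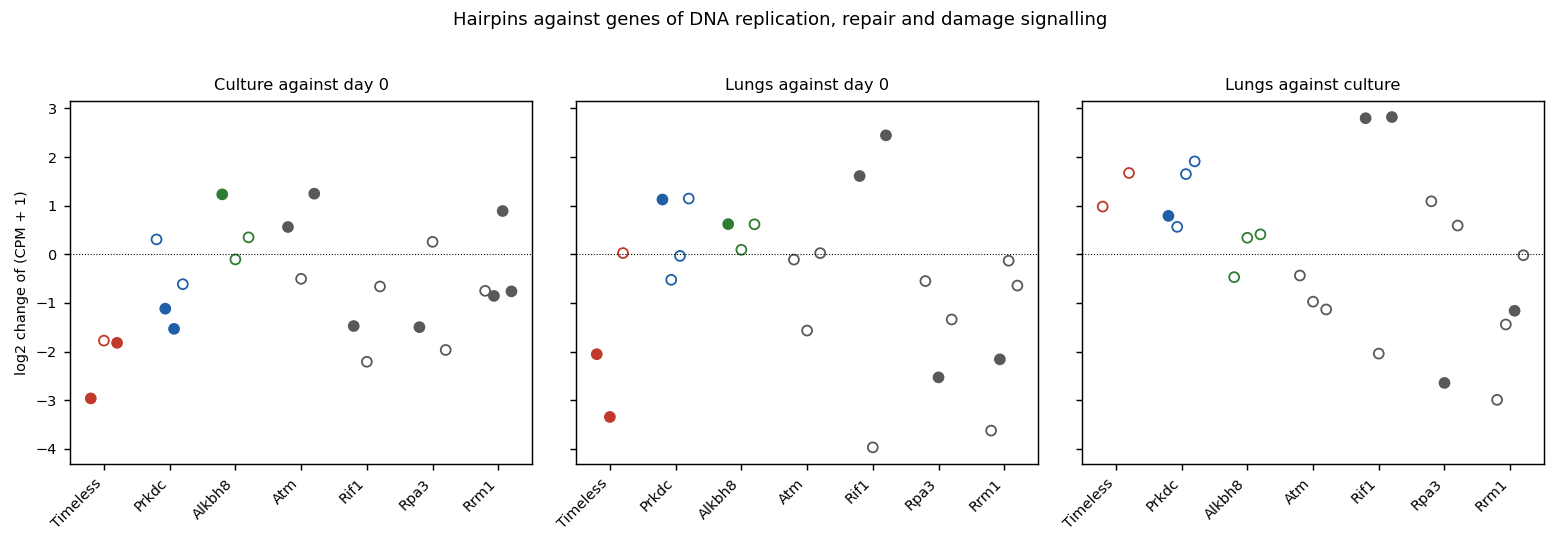
Changes on the log2(CPM + 1) scale of the hairpins of Timeless, Prkdc and Alkbh8 (coloured) and of 4 other genes of DNA replication, repair and damage signalling (grey). Each circle is 1 hairpin, filled where the limma adjusted p was below 0.05. In culture the 3 Timeless hairpins lie between -2.96 and -1.78, and those of Rrm1 lie on both sides of 0.

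The hairpin of another gene whose level followed each gene most closely was found in each pool by Pearson r of log2(CPM + 1) with the mean of the gene's hairpins. For Timeless it was Timp1 TRCN0000080039 in pool 8 (r = 0.87 over 9 libraries) and Cacna2d1 TRCN0000421331 in pool 15 (r = 0.94 over 10). For Prkdc it was Ctnna2 TRCN0000108888 in pool 5 (r = 0.95 over 9) and Kdm5a TRCN0000326191 in pool 16 (r = 0.86 over 10). Without lung library 16D it was Slit2 TRCN0000328112 in pool 16 (r = 0.84 over 9), with Kdm5a TRCN0000326191 at 0.82. For Alkbh8 it was Rassf8 TRCN0000121038 in pool 12 (r = 0.95 over 9). The mean joins hairpins that need not move together, such as those of Prkdc in pool 5. In pool 15 it includes the rare Timeless TRCN0000219102. These libraries share the split into 3 groups and their scaling, so the values are descriptions with no test.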

How the data were processed

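The deposited tables list a normalised read signal per hairpin, made by the authors. The submitters' processing notes name BWA 0.5.9, and how the reads were counted and scaled was not given in the sources used here. Dividing each value by the smallest one in its library gave whole reads, within 0.01 reads, for 27241 of 27241 values (100%). Values were present for 148 of 158 samples. Technical repeats were summed.

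Reads of a pool's targeting hairpins were scaled with the TMM factors of edgeR 4.0.16, and log2(CPM + 1) was tested with limma 3.58.1 (R 4.3.3, variance trend, robust) per pool over the 2 groups compared. A hairpin needed a mean of 10 reads to be tested. The Benjamini-Hochberg adjustment ran over the hairpins of all pools together, with calls below 0.05. Fold changes on this scale understate those of rare hairpins. Levels printed per library use TMM factors over all 3 groups of a pool. edgeR's quasi-likelihood test on the recovered reads called 279, 553 and 222 hairpins for lungs against day 0, culture against day 0 and lungs against culture, and limma 301, 573 and 221. DESeq2 1.42.0 was a further alternative. The steps were tested on simulated data. The 3 genes, the gene list, the rule for named genes (all hairpins of the 3 genes, listed genes called in a comparison, and 1 nearest hairpin per gene and pool) and the tests were chosen with earlier results of these data known. Hairpin sequences and genome positions are not used here. One listed gene is not reported here.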

Additional observations from a re-analysis of the deposited data

Results flagged for a closer look

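Prkdc TRCN0000023862 was higher in lungs than in culture in a direct test of lung against culture libraries (0.79 on the log2 scale, SE 0.25; limma, adjusted p = 0.0351). The level was higher in 3 of 3 lung libraries than in every culture library. The call ended in 6 alternatives: edgeR (adjusted p = 0.0526), DESeq2 (0.0519), and without culture library 4/5B (limma, adjusted p = 0.105), culture 4/5C (0.0663), lung 5A (0.0902) or lung 5B (0.0637).

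Timeless TRCN0000219102 stood at 6.94 CPM in culture library 14/15C, from 19 reads, above the other 3 culture libraries of its pool at 1.81 to 2.57 CPM by more than Dixon's 95% criterion allows. In 4 such groups tested, chance flags about 1 in 20.

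Some hairpins also appeared in libraries of pools that did not contain them, at shares above the highest in day 0 libraries of other pools. Alkbh8 TRCN0000127074 reached 271 reads per 1000000 of all reads in culture library 16/17A (1824 reads), against at most 46.0 at day 0. Alkbh8 TRCN0000127077 reached 104.3 in the same library (702 reads), against at most 20.0. Alkbh8 TRCN0000127076 reached 33.2 in culture library 10/11A (195 reads), against at most 12.3. Timeless TRCN0000234047 reached 261 in lung library 17A (1175 reads), against at most 29.7. Library 16/17A enters the values of the pool 16 hairpins of Prkdc, and 15.3% of its reads were of other pools. Day 0 libraries held such reads too. Timeless TRCN0000097985 of pool 8 reached 181.9 per 1000000 in day 0 library 15C (1052 reads), where 3.03% of reads were of other pools. Library 15C enters the values of the pool 15 hairpins of Timeless. The part of such reads in any result was not tested.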

How the results depend on the processing

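With library totals, deposited values or control totals in place of TMM, 8 of the 10 hairpins were called in culture against day 0 in place of 5, with median changes of -1.63, -1.81 and -1.70. Over all 945 hairpins 615, 632 and 623 were then called, 452, 502 and 523 of them lower, with medians of -0.64, -0.89 and -0.99. With all 3 groups in one fit, 364 hairpins were called in place of 573. The median for lungs against day 0 was -0.66 with the deposited values, beside -0.82 over all 891 hairpins. For lungs against culture, 2 of 9 were called with edgeR, without TMM and with the deposited values, and 3 with DESeq2, with the control total, with all 3 groups in one fit and with culture libraries named for 2 pools, an alternative chosen after seeing the data. Over all 889 hairpins 222, 242 and 226 were called in the first 3 of these settings and 273, 256, 311 and 228 in the others, so these counts of 9 were near the share of all. Signs turned as follows for lungs against day 0. Prkdc TRCN0000361373 was at 0.22 with edgeR, 0.32 with DESeq2, 0.012 with TMM of the other genes' hairpins and 0.011 with the replicate block, and kept its sign at -3.06 with the deposited values and -3.40 relative to the controls. Prkdc TRCN0000361436 was at -1.88 on the authors' scale, -2.22 relative to the controls and -0.17 without lung library 16D or without 10C and 16D. Timeless TRCN0000234047 was at -0.96 without TMM and -0.51 with the deposited values, and Alkbh8 TRCN0000127076 at -0.11 without TMM. For culture against day 0, Prkdc TRCN0000023862 was at -0.45 without TMM, -1.10 on the authors' scale and -1.25 relative to the controls, and Alkbh8 TRCN0000127077 at -0.16 without TMM and -0.057 with the deposited values. For lungs against culture, Prkdc TRCN0000361373 was at -0.77 on the authors' scale and -1.19 relative to the controls, and TRCN0000361436 at -0.51 and -0.93. The cause was not tested.

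Leaving out 1 replicate letter of 1 group at a time, in all pools together, gave 148 to 388 calls for lungs against day 0, 479 to 605 for culture against day 0 and 142 to 249 for lungs against culture. Of the 10 hairpins, 3 to 6, 4 to 6 and 0 to 3 were then called, with medians from -0.24 to 0.35, from -0.995 to -0.77 and from 0.53 to 1.09. Signs turned in 4 hairpins for lungs against day 0: Prkdc TRCN0000361373 ranged from -0.91 to 0.85, Prkdc TRCN0000361436 from -0.17 to 2.46, Timeless TRCN0000234047 from -0.31 to 0.29 and Alkbh8 TRCN0000127076 from -0.092 to 0.22. Values given without a single library leave out that library alone, an alternative chosen after seeing the data. Timeless TRCN0000097985 kept its direction and its side of the threshold in all alternatives run for the 3 comparisons. Same-letter libraries deviated together, with r over 0.1, in 18 of 49, 27 of 53 and 21 of 49 pairs, and the labels do not state a pairing, so the letters were not used as pairs. In pool 8 all 3 pairs of culture and day 0 passed 0.1 (0.283 to 0.86), and there the block left Timeless TRCN0000097985 at -2.96, still a call. With the letter as a replicate block, 231, 575 and 192 hairpins were called, and 3, 5 and 1 of the 10. The call lost under the block was Timeless TRCN0000219102 in lungs against day 0 (limma, adjusted p = 0.0535).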
